A study of Mus musculus with 33 samples.

Results

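Growing mouse oocytes make mRNA that they do not translate at once, and a set of RNA-binding proteins keeps it stable and silent until meiosis resumes. Members of this set, *Zar1*, *Zar1l*, *Ybx2*, *Cpeb1*, *Lsm14b*, *Ddx6*, *Patl2*, *Eif4enif1*, *Elavl2* and *Igf2bp2*, were taken by name from the table of read counts per gene, which gave 10 of its 35321 genes. Each name had 1 entry in the table, and all 10 were detected in every oocyte. The libraries came from the polyadenylated RNA of single germinal vesicle (GV) oocytes of female mice aged 3 weeks on a C57BL6/Babr background. The mutant line carries a small CRISPR/Cas9 deletion in *Nlrp5*, which encodes NALP5, a core protein of the subcortical maternal complex. The deletion is present in every cell of the animal, and all mutant alleles of the line share that deletion. Nlrp5+/+ mice gave 10 oocytes (4 NSN and 6 SN), Nlrp5+/- mice 16 (9 NSN and 7 SN) and Nlrp5-/- mice 7 (4 NSN, 2 SN and 1, oocyte 15, with no stage). The paper's text gives 2 to 6 oocytes for each stage and genotype. A supplementary legend gives 4 NSN and 6 SN Nlrp5+/- oocytes, fewer than the 9 and 7 used here, and the reason for this difference is not known. Nlrp5-/- and Nlrp5+/- females were littermates, while Nlrp5+/+ females mostly came from the colony in which the line arose. In NSN oocytes (non-surrounded nucleolus) chromatin is open around the nucleolus and transcription continues, whereas in SN oocytes (surrounded nucleolus) chromatin has condensed around the nucleolus and transcription has largely stopped.

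Genotype was given with each sample. Stage was not, and was read from the study's staging plot, where it had been called from the RNA itself with a list of stage markers. The bar of that plot is partly blurred, so the stage of single oocytes is uncertain, and every stage value below rests on it. *Patl2* is 1 of the 105 NSN markers on that list and the other 9 genes are not on it, so the stage difference of *Patl2* was fixed in part by how the stages were called, and every stage difference is given as a description. No mouse is named for any oocyte. The oocytes of 1 genotype and stage were therefore treated as 1 sample, no test was made, and each SD describes the spread over oocytes only. Counts were divided by size factors and are called normalised read counts. A difference is the log2 ratio of 2 group means after adding 1 to each, and "past the fold" means a log2 difference of at least 0.5 in size.

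The depth was 4223595 to 15573360 counts on genes per oocyte. *Nlrp5* itself had a mean of 17797 normalised counts in Nlrp5+/+ NSN oocytes and 2060 in Nlrp5-/- NSN oocytes, and 11699 and 2182 at SN. All 9 oocyte markers looked at (*Gdf9*, *Zp3* and others) were detected in every group, with summed levels of 17286 to 32280 CPM, which is counts scaled to the same total in each oocyte. The summed level of 16 granulosa cell markers was 280 to 475 CPM in Nlrp5+/+, 306 to 427 in Nlrp5+/- and 286 to 692 in staged Nlrp5-/- oocytes, and 1438 CPM in oocyte 15. *Amh*, *Fst*, *Foxl2* and *Inhbb* were at 0 in Nlrp5+/+ NSN oocytes. The other granulosa markers had counts there, and *Serpine2* (285.9 CPM), *Nr5a2* (42.4), *Cyp19a1* (32.05) and *Kitl* (12.1) had the highest means. Over the 12 granulosa markers with a low level in Nlrp5+/+ oocytes, a subset chosen after values were seen, Nlrp5+/+ and Nlrp5+/- oocytes held 1.74 to 29.8 CPM, while Nlrp5-/- oocytes 7 (SN), 13 and 14 (both NSN) held 121, 167 and 326 CPM and oocyte 15 held 1030.5 CPM. The summed level of 6 theca and interstitial cell markers was 2.93 to 6.37 CPM in Nlrp5+/+, 6.86 to 311.6 in Nlrp5+/-, 11.7 to 216.8 in staged Nlrp5-/- oocytes and 650.8 in oocyte 15. The highest Nlrp5+/- values were those of NSN oocytes 61 (311.6) and 54 (102.5). In Nlrp5+/+ NSN oocytes *Cyp17a1* and *Insl3* were at 0, and the means of the other theca markers ran from 0.06 (*Lhcgr*) to 2.47 CPM (*Star*). Markers of stroma, vessels and blood, 9 in all, summed to 45.9 to 80.2, 57.3 to 96.2 and 76.4 to 113.8 CPM in the 3 genotypes and 256.3 in oocyte 15. The part of these markers in the differences between genotypes was not tested. Nlrp5-/- differences were recomputed without oocytes 7, 13 and 14, and several of those below the fold moved in size or sign. Nlrp5+/- oocytes 55 (SN) and 61 (NSN) were read from the staging plot as lying apart from the other oocytes of their stage, and the comparisons were also made without them.

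These proteins act on the mRNA from both ends and along its body. CPEB1 binds the cytoplasmic polyadenylation element in the 3′ end of stored mRNAs. DDX6 is a DEAD-box RNA helicase of repressed ribonucleoproteins, LSM14B and PATL2 are germline paralogs of its partners LSM14A and PATL1, and 4E-T, the product of *Eif4enif1*, binds the cap-binding protein eIF4E and keeps it from the translation machinery. ZAR1 and its paralog, encoded by *Zar1l*, are zinc-finger RNA-binding proteins of the oocyte, and ZAR1 organises stored mRNA around mitochondria. YBX2 (MSY2) is a Y-box protein that coats maternal mRNA. ELAVL2 and IGF2BP2 bind AU-rich and other elements of mRNA and affect its stability and translation. Stored transcripts can change in tail length with no change in their number. The libraries were primed on the poly(A) tail, and fewer transcripts, shorter tails and less RNA per cell cannot be told apart in them.

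The 3′ ends of 4 of the transcripts are shown because priming starts there and because CPEB1 reads elements placed there. The windows are 30 bases long and come from the GENCODE vM39 transcript of each gene, 5′ to 3′, with the AATAAA poly(A) signal or the cytoplasmic polyadenylation element in capitals.
Ddx6: ttaatttatctcAATAAAagcccactggaa
Patl2: ggccttgtatttAATAAAagtctaatctgg
Zar1: ataaagcctgtgAATAAAaggtattgcaaa
Ybx2: cctctgaagccaTTTTATgaactgtcatgt
*Ddx6*, *Patl2* and *Zar1* hold the signal 23, 25 and 21 bases from the annotated end. *Ybx2* has no AATAAA or ATTAAA in the last 100 bases and carries TTTTAT 62 bases from the end. The element, searched as TTTTAT or TTTTAAT on the transcript strand in the last 100 bases, was found in *Ybx2* alone among the 10 genes, and in 15.93% of 21379 annotated transcripts of genes in the table. AATAAA or ATTAAA was found in 8 of the 10 genes, all but *Ybx2* and *Igf2bp2*, and in 74.24% of those transcripts.

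The sequence before the start of *Patl2* is shown because this gene differed both between stages and between genotypes. The 250 bases upstream of the RefSeq start lie at chr2:122186190-122186439 on the minus strand of GRCm38.p6, with each CCAAT box (CCAAT or its reverse complement ATTGG) in capitals.
Patl2: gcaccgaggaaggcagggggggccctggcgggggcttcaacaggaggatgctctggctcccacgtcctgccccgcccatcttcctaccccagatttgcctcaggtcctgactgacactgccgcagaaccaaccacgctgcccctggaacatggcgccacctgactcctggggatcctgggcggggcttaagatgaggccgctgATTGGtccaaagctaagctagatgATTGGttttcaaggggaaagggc
Both boxes lie near the start. CCAAT was found on either strand in 33.85% of 32851 promoters of this length, so its presence is common. The NOBOX-type letters TAATTG or CAATTA were absent from this window and were found 2 times in that of *Zar1l*, against 7.169% of all promoters with at least 1. Promoters were matched for 9 of the 10 genes, and *Ddx6* had no entry.

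The genes spanned more than 2 orders of magnitude in level. Compared per kilobase (kb) of the median transcript, because counts rise with transcript length, the mean over the 33 oocytes was 12357 normalised counts per kb for *Zar1*, 2765 for *Zar1l*, 1874 for *Cpeb1* and 1424 for *Eif4enif1*. *Igf2bp2* (666 per kb), *Lsm14b* (624) and *Elavl2* (507) followed, and *Patl2* (317), *Ddx6* (85.2) and *Ybx2* (77.96) were lowest. *Zar1* was above 99.9% of detected genes on this scale, and *Ybx2* above 76.6%. *Zar1* took the first place in each of the 33 oocytes. Its lowest oocyte, at 9064 per kb (highest 19714), lay above the highest of every other gene, such as *Zar1l* at 1935 to 4818. *Zar1l* held place 2 or 3 and *Cpeb1* place 2 to 4 in every oocyte, and their ranges overlapped. *Igf2bp2*, *Lsm14b* and *Elavl2* moved between places 5 and 8 and did not differ beyond their spread. *Patl2* lay among them at NSN, at places 5 to 8 in 17 oocytes, and took place 8 in all 15 SN oocytes. *Ddx6* took place 10 in 2 of 17 NSN oocytes and in 14 of 15 SN oocytes, and *Ybx2* took it in the others.

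**Figure D1:**
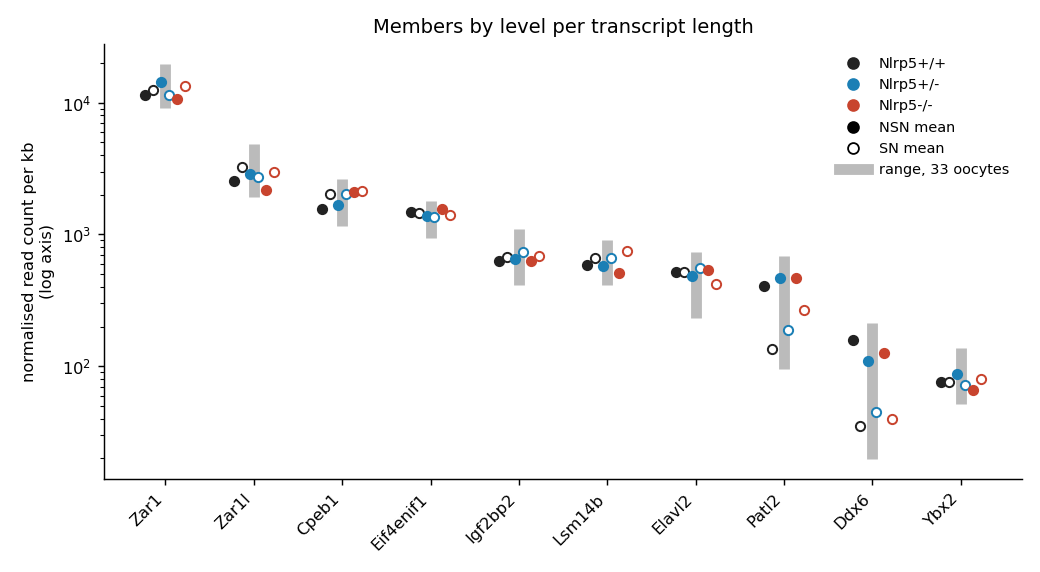
Normalised read counts per kb of the median annotated transcript (log axis) for the 10 genes in order of their mean. Points are group means by genotype (colour) and stage (filled NSN, open SN), and grey bars span all 33 oocytes. *Zar1* lies above all others, and the stage means of *Patl2* and *Ddx6* lie apart while those of the other genes lie close together.

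The first question was how these transcripts differ between NSN and SN oocytes of 1 genotype. In Nlrp5+/+ oocytes *Ddx6* and *Patl2* were lower at SN, by -2.16 and -1.59 on the log2 scale, and the other 8 genes lay between -0.03 and 0.37. Of the 10 genes, 2 were past the fold downwards, against 20.0% of 13576 genes above the filter, and 0 upwards, against 13.9%. The oocytes of the 2 stages did not overlap for these 2 genes (6.07% of genes were lower without overlap). The median over the 10 genes was 0.06, beside 0.03 over all genes above the filter. Within the fold were 8 of 10 genes in each of Nlrp5+/+ and Nlrp5+/- oocytes, and 7 of 10 in Nlrp5-/- oocytes. Past it in either direction were 33.9%, 28.7% and 38.1% of all genes above the filter in the 3 genotypes, so most genes of the table were within it as well.

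**Figure D2:**
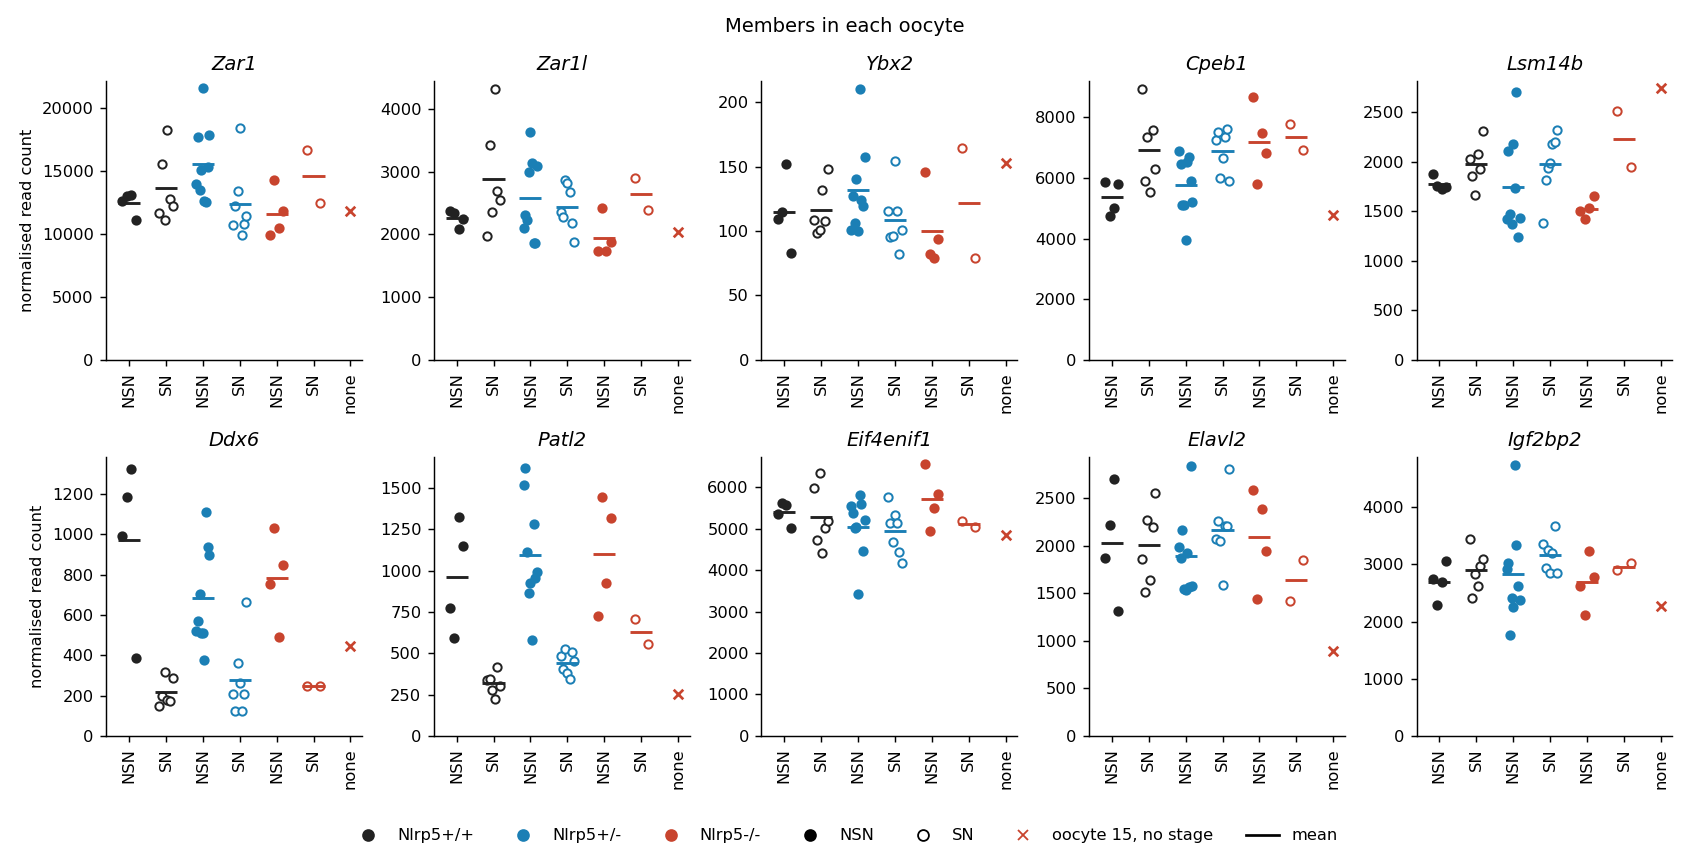
Normalised read count of each gene (linear axis from 0) in every oocyte, by genotype (colour) and stage (filled NSN, open SN). Lines are group means, and the cross is the unstaged Nlrp5-/- oocyte 15. The means of *Ddx6* and *Patl2* are higher in NSN than in SN oocytes of each genotype, and *Ddx6* overlaps between stages in Nlrp5+/- oocytes only. The other genes overlap between stages apart from *Lsm14b* in Nlrp5-/- oocytes.

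*Ddx6* (ENSMUSG00000032097, chr9:44604892-44640731, plus strand, GRCm38), the helicase, showed the largest stage difference of the set. The 4 Nlrp5+/+ NSN oocytes held 386, 992, 1182 and 1323 normalised counts, and the 6 SN oocytes ran from 147 to 315 with a median of 189. Every NSN oocyte was thus above every SN oocyte, and the lowest NSN oocyte, 87, lay well apart from the other 3. The group means were 971 ± 412 (SD, n = 4 oocytes) and 216 ± 67.7 (SD, n = 6). The sums of raw counts behind them were 4934 (95% Poisson interval 4797 to 5074) and 1737 (1656 to 1821), intervals that cover counting error only. Without oocyte 87 the difference was -2.42.

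In Nlrp5+/- oocytes *Ddx6* ran from 375 to 1111 at NSN (median 570.1, n = 9) and from 122 to 665 at SN (median 209.5, n = 7), a difference of -1.29. The groups overlapped through SN oocyte 55 alone, with 665, since the other 6 SN oocytes held at most 360.8. Without oocyte 55 the difference was -1.67, and without oocytes 55 and 61 it was -1.74. In Nlrp5-/- oocytes the NSN values were 492, 751, 849.6 and 1033 and the SN values 245 and 249.6, with no overlap and a difference of -1.66. Without oocytes 7, 13 and 14, which leaves 1 SN oocyte and 2 NSN oocytes, it was -1.45. Among pairs of stages that share a first index, the closest to a plate or collection that the column names give, *Ddx6* was lower at SN in 5 of 6, from -2.51 to -0.75, and 0.21 higher in the pair whose only SN oocyte was oocyte 55.

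*Patl2* (ENSMUSG00000027233, chr2:122120108-122186189, minus strand) encodes the oocyte paralog of PATL1. The Nlrp5+/+ NSN oocytes held 590.2, 776, 1149.7 and 1327 normalised counts, and the SN oocytes ran from 226 to 419 (median 320.1). Every NSN oocyte exceeded every SN oocyte. The means were 961 ± 337 (SD, n = 4) and 318 ± 65.6 (SD, n = 6), from 4819 (95% Poisson interval 4684 to 4957) and 2790 (2687 to 2896) raw counts. As a staging marker, *Patl2* was bound to differ in this direction to some degree. The other 103 NSN markers above the filter had a median difference of -1.34 in the same comparison, and 94 of them were lower at SN.

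In Nlrp5+/- oocytes *Patl2* ran from 578 to 1618 at NSN (median 990.5) and from 345 to 523 at SN (median 451), a difference of -1.30 without overlap. In Nlrp5-/- oocytes the NSN values were 727, 923, 1317 and 1445 and the SN values 555 and 707, a difference of -0.80 without overlap. All 6 index pairs had lower *Patl2* at SN, from -1.92 to -1.01. The stage difference of *Patl2* was 0.28 smaller in Nlrp5+/- and 0.78 smaller in Nlrp5-/- than in Nlrp5+/+ oocytes, and that of *Ddx6* 0.87 and 0.51 smaller. Without oocytes 7, 13 and 14 the Nlrp5-/- stage difference of *Patl2* was -1.01, and the gaps to Nlrp5+/+ were 0.58 for *Patl2* and 0.71 for *Ddx6*. These gaps also turn on single oocytes. The Nlrp5+/- gap of *Ddx6* was 0.50 without oocyte 55 and 0.42 without oocytes 55 and 61, and that of *Patl2* was 0.46, 0.09 and 0.19 without Nlrp5+/+ oocyte 78, 79 or 87. The Nlrp5-/- gap of *Ddx6* was 0.32 without Nlrp5+/+ oocyte 79 and 0.77 without Nlrp5+/+ oocyte 87. None of these gaps was tested. The span of *Patl2* holds *B2m* and *Trim69* on the other strand, but no exonic base is shared in the GENCODE vM39 annotation.

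**Figure D3:**
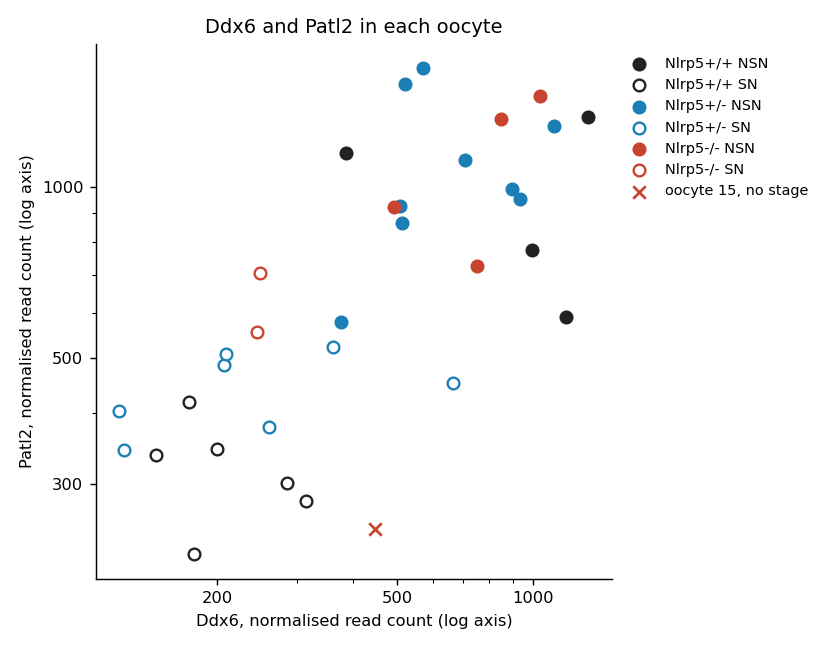
Normalised read counts of *Ddx6* and *Patl2* in each oocyte (both axes log), by genotype (colour) and stage (filled NSN, open SN). NSN oocytes lie to the upper right and SN oocytes to the lower left, Nlrp5+/- SN oocyte 55 lies to the right of the other SN oocytes at 665 for *Ddx6*, and within a stage the points show little relation.

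Over the 32 staged oocytes *Ddx6* and *Patl2* had a Pearson correlation of 0.74 on the log2 scale. Within a stage it was 0.11 over 17 NSN oocytes and 0.23 over 15 SN oocytes. The pooled value therefore rests on the difference between stages. All correlations here share libraries and depth between genes and are given as descriptions.

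*Lsm14b* (ENSMUSG00000039108, chr2:180024987-180035465, plus strand), the paralog of *Lsm14a*, went the other way. In Nlrp5-/- oocytes it held 1418, 1502, 1536 and 1656 normalised counts at NSN and 1950.2 and 2516 at SN, with no overlap and a difference of 0.55. It was the 1 gene of 10 past the fold upwards in that comparison, against 14.3% of 13840 genes, while 2 were past it downwards, against 23.8%. Genes without overlap made up 9.47% upwards and 10.8% downwards there, where the SN group holds only 2 oocytes. The difference was 0.35 without oocyte 7. It was 0.29 without oocytes 7, 13 and 14, which leaves the same oocytes as the 1 index that holds both stages. Oocyte 7 held more granulosa marker counts than oocyte 31, and the part of these in the difference was not tested. In Nlrp5+/+ oocytes *Lsm14b* ran from 1727 to 1873 at NSN (n = 4) and from 1667 to 2307 at SN (n = 6), a difference of 0.16. In Nlrp5+/- oocytes it ran from 1238 to 2708 at NSN and from 1379 to 2321 at SN, a difference of 0.18. It was higher at SN in all 6 index pairs, by 0.05 to 0.47.

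*Eif4enif1* (ENSMUSG00000020454, chr11:3202392-3244588, plus strand) was the steadiest of the 10, with a coefficient of variation of 12.04% over 33 oocytes. Group means ran from 4957 ± 554 (SD, n = 7, Nlrp5+/- SN) to 5724 ± 676 (SD, n = 4, Nlrp5-/- NSN). The stage differences were -0.03, -0.03 and -0.16 in Nlrp5+/+, Nlrp5+/- and Nlrp5-/- oocytes. *Drg1* lies across it on the other strand, with no shared exonic base. In contrast, *Ddx6* and *Patl2* had the widest spread, at 65.8% and 55.1%.

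*Cpeb1* (ENSMUSG00000025586, chr7:81347026-81455465, minus strand) was higher at SN by 0.37 in Nlrp5+/+ and 0.26 in Nlrp5+/- oocytes, both within the fold and with overlapping oocytes, and differed by 0.03 in Nlrp5-/- oocytes (-0.04 without oocytes 7, 13 and 14). Its Nlrp5+/+ values were 4755, 5022, 5800.3 and 5873 at NSN and 5522 to 8949 (median 6825) at SN. Of the 6 index pairs, 5 had more *Cpeb1* at SN. In Nlrp5-/- oocytes the level was already 5813 to 8686 at NSN.

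*Zar1* (ENSMUSG00000063935, chr5:72576806-72581254, minus strand) and *Zar1l* (ENSMUSG00000056586, chr5:150507055-150518164, minus strand) showed no common direction across genotypes. *Zar1* differed between stages by 0.13, -0.33 and 0.33, and *Zar1l* by 0.35, -0.08 and 0.45, in Nlrp5+/+, Nlrp5+/- and Nlrp5-/- oocytes, with overlap in every case. In Nlrp5+/+ oocytes *Zar1* was 0.02 without oocyte 80 and 0.18 without oocyte 77, and *Zar1l* was 0.20 without oocyte 80 and 0.44 without oocyte 69. With medians over oocytes these were -0.04 for *Zar1* and 0.20 for *Zar1l*. Within the first index *Zar1* was -0.62 and -0.54 in the 2 Nlrp5+/- pairs, a mean of -0.58 that is past the fold, which raised the number of genes lower past the fold in Nlrp5+/- oocytes from 2 to 3. In Nlrp5-/- oocytes *Zar1* was 0.52 and *Zar1l* 0.58 without oocyte 31, and *Zar1l* was 0.57 without oocyte 14. Without oocyte 7 they were 0.10 and 0.30, and without oocytes 7, 13 and 14 they were 0.16 and 0.40. Nlrp5+/+ *Zar1* was 11118, 12630.4, 12979 and 13119 at NSN and 11142 to 18279 (median 12489) at SN. The paralogs correlated at 0.64 over 32 oocytes, at 0.69 within NSN and at 0.73 within SN, so this relation was present in both stages, in contrast to that of *Ddx6* with *Patl2*.

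A property of the libraries moved with the *Zar* genes. In each oocyte the median deviation of genes with transcripts under 1000 bases was set against that of genes over 4000 bases. This contrast between short and long transcripts ran from -0.67 in Nlrp5-/- oocyte 13 to 0.82 in Nlrp5+/- oocyte 56. It correlated at 0.81 with *Zar1l* and 0.63 with *Zar1*, whose median transcripts have 895 and 1093.5 bases, and at -0.68 with *Eif4enif1*, -0.52 with *Elavl2* and -0.46 with *Cpeb1*, whose transcripts are longer than 3000 bases. Length did not order all members, since *Igf2bp2* (4314.5 bases) stood at -0.12 and *Lsm14b* (3000 bases) at 0.20. For *Ddx6* and *Patl2* the correlation was -0.28 and -0.22. Short genes were 0.28 above long ones at SN against NSN in Nlrp5+/+ oocytes, 0.17 below in Nlrp5+/- (-0.17) and 0.38 above in Nlrp5-/- oocytes, the same signs as for *Zar1* and *Zar1l*. The part of this contrast in the differences of the 2 genes was not tested.

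*Ybx2* (ENSMUSG00000018554, chr11:69935796-69941605, plus strand) had the fewest counts of the 10. Nlrp5+/+ values were 83.0, 109.5, 115 and 152 at NSN and 98.3 to 148 (median 108) at SN, a difference of 0.02. Nlrp5+/- and Nlrp5-/- oocytes differed by -0.28 (-0.15 without oocytes 55 and 61) and 0.28, with overlap. In the Nlrp5-/- SN group 1 oocyte held 78.9 and the other 165, so the mean of 122 ± 60.6 (SD, n = 2) describes neither. Without oocytes 7, 13 and 14 the Nlrp5-/- stage difference was -0.13, the other sign, and without oocyte 31 it was 0.71. The 231 raw counts of that group have a 95% Poisson interval of 202 to 263. In GENCODE vM39, 940 of the 2290 exonic bases of *Ybx2* are shared with exons of *Eif5a* and *Slc2a4*, and the libraries carry no strand, so reads from these genes cannot be told apart there and the level of *Ybx2* is uncertain.

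*Elavl2* (ENSMUSG00000008489, chr4:91250763-91400785, minus strand) differed between stages by -0.02, 0.20 and -0.35, and *Igf2bp2* (ENSMUSG00000033581, chr16:22059009-22163299, minus strand) by 0.10, 0.16 and 0.14, in Nlrp5+/+, Nlrp5+/- and Nlrp5-/- oocytes. All 6 differences were within the fold with overlapping oocytes, though the Nlrp5-/- value of *Elavl2* was -0.56, past the fold, without oocyte 31 and -0.17 without oocyte 7. The value of *Igf2bp2* was 0.31 in Nlrp5+/- oocytes without oocytes 55 and 61 and 0.00 in Nlrp5-/- oocytes without oocytes 7, 13 and 14. Nlrp5+/+ *Elavl2* was 1317, 1868, 2216 and 2702 at NSN, wider than the 1515 to 2555 of the 6 SN oocytes. *Igf2bp2* was highest in the Nlrp5+/- NSN oocyte 61, at 4734, where the other 8 oocytes of that group lay between 1773 and 3344.

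**Figure D4:**
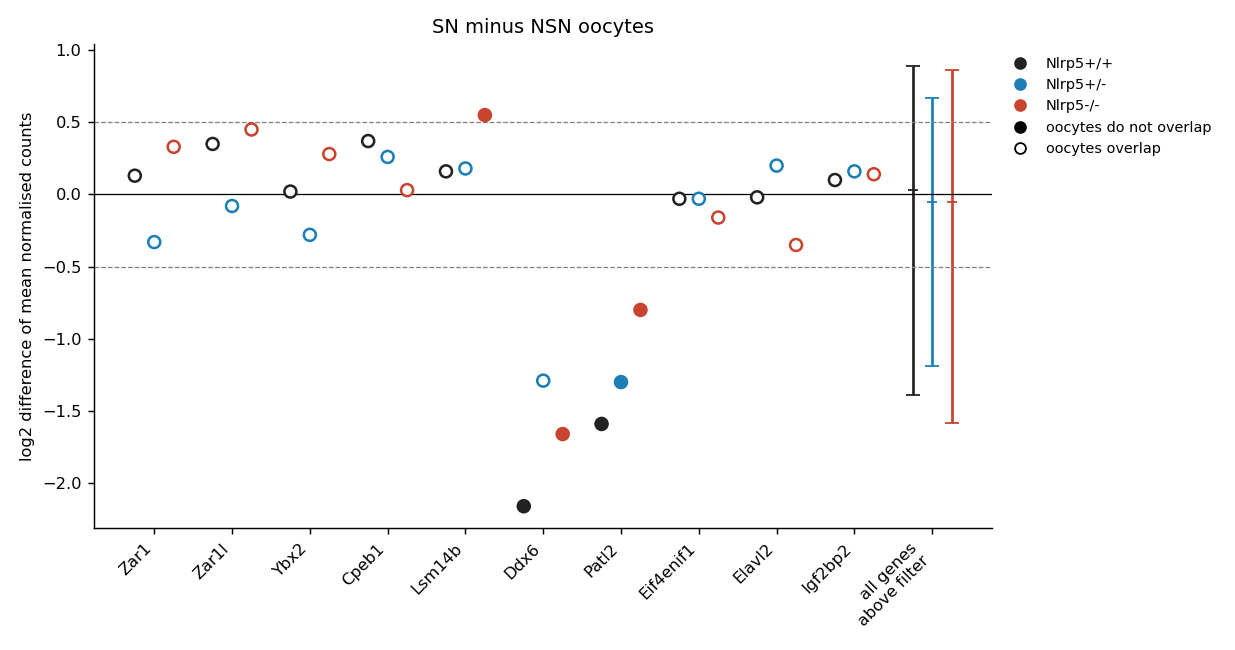
Log2 difference of mean normalised counts, SN minus NSN, for each gene in Nlrp5+/+, Nlrp5+/- and Nlrp5-/- oocytes. Filled points mark groups of oocytes that do not overlap, dashed lines the fold of 0.5, and the bars at the right span the 5th to 95th percentile of all genes above the filter around their median. *Ddx6* lies at or below -1.29 and *Patl2* at or below -0.80 in all 3 genotypes, and *Lsm14b* in Nlrp5-/- oocytes is the only point above 0.5.

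In Nlrp5+/- oocytes as a whole, 2 of the 10 genes were past the fold downwards (19.4% of 13613 genes) and 0 upwards (9.33%), and *Patl2* alone showed no overlap (0.823% lower). The median over the genes was -0.06 (0.02 without oocytes 55 and 61), beside -0.05 over all genes. In Nlrp5-/- oocytes the median was 0.08 (-0.09 without oocytes 7, 13 and 14), beside -0.05. *Ddx6* stood below all but 1.64%, 4.05% and 4.62% of genes above the filter in Nlrp5+/+, Nlrp5+/- and Nlrp5-/- oocytes, and *Patl2* below all but 3.73%, 3.89% and 14.9%.

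The second question was whether loss of *Nlrp5* went with different levels at a matched stage. Each first index held oocytes of a single genotype, so genotype and index cannot be told apart in these comparisons. The comparisons share their Nlrp5+/+ oocytes, and each is given by its own values. At NSN, 0 of 10 genes were past the fold in Nlrp5-/- against Nlrp5+/+ oocytes, where 15.6% of 13833 genes were higher and 13.3% lower (3.96% higher without overlap). The median was -0.05, beside 0.00 over all genes, and the genes ran from -0.31 (*Ddx6*) to 0.42 (*Cpeb1*). *Cpeb1* was 7198 ± 1204 in Nlrp5-/- and 5363 ± 559 in Nlrp5+/+ oocytes (SD, n = 4 each), and oocyte 14, at 5813, lay below the highest Nlrp5+/+ oocyte, at 5873. *Lsm14b* was the 1 gene without overlap, at 1418 to 1656 in Nlrp5-/- and 1727 to 1873 in Nlrp5+/+ oocytes, a difference of -0.21 that is small beside the fold (3.14% of genes were lower without overlap). Without oocytes 13 and 14 this difference was -0.15. Calls in this comparison also turn on single oocytes, since *Ddx6* was past the fold at -0.58 without Nlrp5+/+ oocyte 87 and -0.53 without oocytes 13 and 14, and *Cpeb1* at 0.51 without oocyte 14. In the other direction, *Ddx6* was -0.13 without Nlrp5+/+ oocyte 79, -0.14 without Nlrp5-/- oocyte 29 and 0.17, the other sign, regardless of stage. *Cpeb1* was 0.32 without oocyte 13.

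At SN, *Patl2* was higher in Nlrp5-/- than in Nlrp5+/+ oocytes. The 2 Nlrp5-/- oocytes held 555 and 707 normalised counts and the 6 Nlrp5+/+ oocytes at most 419, a difference of 0.98 without overlap. It was the 1 gene of 10 past the fold (15.9% of 13351 genes were higher, 7.24% without overlap, and 18.7% lower, 7.85% without overlap), and the median over the 10 was 0.08, beside 0.00. Without oocyte 7 the difference was 0.80. Regardless of stage, with oocyte 15 at 250.5 included, it was 0.56. That value mixes stages unevenly, with 4 NSN and 2 SN Nlrp5-/- oocytes against 4 and 6 Nlrp5+/+ oocytes, and *Patl2* was higher at NSN. The part of this mix in the value was not tested. The other genes lay between -0.29 (*Elavl2*) and 0.19 (*Ddx6*), though *Ybx2*, at 0.07, was -0.55 without oocyte 7 and 0.50 without oocyte 31, and *Elavl2* was -0.11 and -0.50.

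Other NSN markers differed in the same direction as *Patl2* in this comparison. Of the 99 other NSN markers above the filter, 78 were higher in Nlrp5-/- than in Nlrp5+/+ SN oocytes, 52 of them past the fold, with a median of 0.57, while the 59 SN markers had a median of 0.01. At NSN, where *Patl2* differed by 0.20, 41 of 104 other NSN markers were higher past the fold and 3 lower, with a median of 0.38. A score of the mean log2 level of NSN markers other than *Patl2* minus that of SN markers ran from -5.29 to -4.09 in Nlrp5+/+ SN oocytes and was -4.24 and -3.87 in the 2 Nlrp5-/- SN oocytes, with NSN oocytes of all genotypes at -3.54 or above. Of the 2 Nlrp5-/- SN oocytes, 1 thus lay near the NSN side of the Nlrp5+/+ SN range and 1 beyond it, and both lay inside the range of the Nlrp5+/- SN oocytes, -5.16 to -3.63. The lowest NSN oocyte, Nlrp5+/- oocyte 61 at -3.54, was close to the highest SN oocyte at -3.63. The score is built from the markers that set the stages and is no independent check of them. The part of stage in the *Patl2* difference was not tested. *Ddx6*, which is not on the staging list, was 245 and 249.6 in these 2 oocytes, inside the Nlrp5+/+ SN range of 147 to 315.

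**Figure D5:**
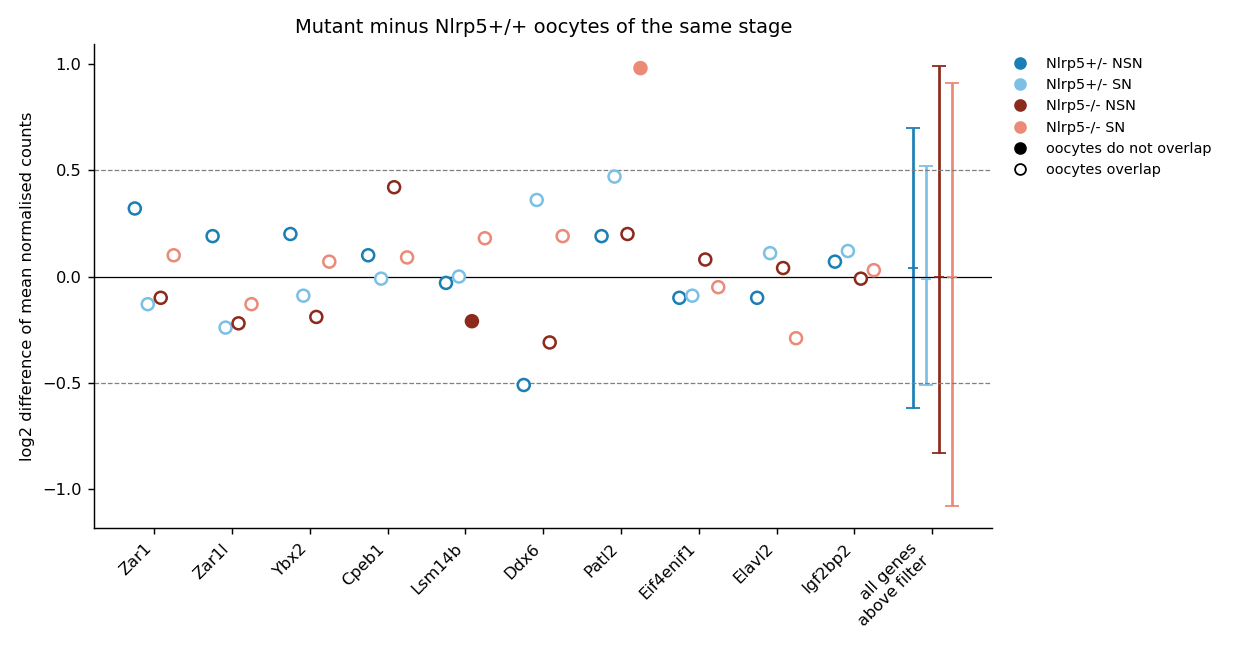
Log2 difference of mean normalised counts from Nlrp5+/+ oocytes of the same stage, for Nlrp5+/- (blue) and Nlrp5-/- (red) oocytes at NSN (dark) and SN (light). Filled points mark groups that do not overlap, dashed lines the fold of 0.5, and the bars at the right span the 5th to 95th percentile of all genes above the filter. *Patl2* in Nlrp5-/- SN oocytes, at 0.98, stands alone above 0.5, and *Ddx6* in Nlrp5+/- NSN oocytes lies at -0.51.

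Nlrp5+/- oocytes were close to Nlrp5+/+ oocytes. At NSN *Ddx6* was past the fold at -0.51 (1 of 10 lower, 8.61% of 13732 genes, and 0 higher, 10.8%), but the oocytes overlapped widely and the median was 0.09, beside 0.04 over all genes. That difference was -0.32 without Nlrp5+/+ oocyte 79 and -0.77 without Nlrp5+/+ oocyte 87. It was -0.40 without oocyte 78, -0.43 without oocyte 61, -0.48 to -0.46 without any 1 of oocytes 45, 48, 54 and 56, and -0.93 with medians over oocytes. At SN 0 of 10 were past the fold and 0 were without overlap (5.33% of 13295 genes higher and 5.29% lower, 0.0226% and 0.0602% without overlap). *Patl2* was nearest, at 442 ± 68.0 (SD, n = 7) against 318 ± 65.6 (SD, n = 6), a difference of 0.47 with overlap, so its mean SN level was ordered Nlrp5+/+, Nlrp5+/-, Nlrp5-/-. It reached the fold, at 0.50 to 0.57, without any 1 of oocytes 40, 46, 72 and 85, with scaling to total counts and with medians over oocytes. *Ddx6*, at 0.36, rested on Nlrp5+/- oocyte 55, being -0.01 without it, and was 0.50 without oocyte 77. The 97 other NSN markers above the filter had a median of 0.31 in this comparison.

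Nlrp5-/- oocytes were also set against their Nlrp5+/- littermates. At NSN 0 of 10 genes were past the fold and 0 without overlap (12.2% of 13856 genes higher and 14.9% lower, 0.476% and 0.686% without overlap), and *Zar1*, *Zar1l* and *Ybx2* were lowest at -0.42, -0.41 and -0.39. Without oocyte 14 *Zar1* and *Zar1l* were past the fold, both at -0.54, as was *Ybx2* at -0.63 without oocyte 13. Without oocytes 13 and 14 the values were -0.48, -0.52 and -0.61. Short transcripts were 0.39 below long ones (-0.39) in this comparison as well. At SN *Patl2* was past the fold at 0.51 with 555 and 707 against 345 to 523, without overlap (14.6% of 13331 genes were higher, 5.25% without overlap, and 17.6% lower, 5.81% without overlap). It was 0.33 without oocyte 7, 0.46 to 0.49 without any 1 of oocytes 38, 40 and 46, and 0.07 regardless of stage. *Elavl2* was at -0.41 with overlap, at -0.62 without oocyte 31 and at -0.23 without oocyte 7. *Ybx2*, at 0.16 with all oocytes, was 0.59 and -0.46 without the same oocytes, so its sign turned on which oocyte was left out.

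Lists of related genes, 3 in all, were counted in the same way. Among 25 other storage and repressor genes above the filter (of 26 listed, such as *Cpeb4* and *Lsm14a*), 7 were lower and 1 higher past the fold at SN in Nlrp5+/+ oocytes, 3 and 1 in Nlrp5+/- and 6 and 1 in Nlrp5-/- oocytes, with medians of -0.25, 0.05 and -0.26. *Fmr1*, which encodes a repressor of translation, held 145 to 266 normalised counts at NSN and 48.6 to 102 at SN in Nlrp5-/- oocytes, a difference of -1.39, and of -0.90 without oocytes 7, 13 and 14. In Nlrp5-/- against Nlrp5+/+ oocytes 4 were higher and 2 lower at each stage, beside 15.6% higher and 13.3% lower of all genes at NSN and 15.9% and 18.7% at SN, so the counts were near or below background.

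Of 22 cap-binding, poly(A)-binding and polyadenylation factors, 3 were lower and 1 higher at SN in Nlrp5+/+ oocytes, 2 and 1 in Nlrp5+/-, and 5 and 2 in Nlrp5-/- oocytes. Of all genes 20.0%, 19.4% and 23.8% were lower and 13.9%, 9.33% and 14.3% higher. In Nlrp5-/- against Nlrp5+/+ oocytes 4 factors were higher and 0 lower at NSN, beside 15.6% and 13.3% of all genes. At SN 1 was higher and 2 lower, beside 15.9% and 18.7%. *Pabpc1*, the somatic poly(A)-binding protein, differed in the same directions as *Patl2* in the comparisons that follow. It held 105 to 282 normalised counts at NSN and 27.4 to 103 at SN in Nlrp5+/+ oocytes, a difference of -1.72, and 143 to 321 and 41.98 to 119.9 in Nlrp5+/- oocytes, a difference of -1.35. The 2 Nlrp5-/- SN oocytes held 147 and 151, above every Nlrp5+/+ SN oocyte, a difference of 1.34 (1.36 without oocyte 7).

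Of 16 transcripts known to be stored and translated once meiosis resumes, 4 were higher and 0 lower at SN in Nlrp5+/+ and in Nlrp5+/- oocytes, and 0 in either direction in Nlrp5-/- oocytes, with medians of 0.23, 0.27 and 0.04. In Nlrp5-/- against Nlrp5+/+ oocytes 3 were higher at NSN, while 2 were higher and 4 lower at SN, with medians of 0.17 and -0.12, beside 15.6% higher and 13.3% lower of all genes at NSN and 15.9% and 18.7% at SN. *Cdc20*, the activator of the anaphase-promoting complex, held 401 to 1075 normalised counts in Nlrp5+/+ and 1158 to 1523 in Nlrp5-/- NSN oocytes, a difference of 1.14 (1.21 without oocytes 13 and 14). All 3 lists were chosen with earlier results of these data known. In the stage comparisons their counts lie beside 13.9%, 9.33% and 14.3% of all genes higher at SN in Nlrp5+/+, Nlrp5+/- and Nlrp5-/- oocytes, and 20.0%, 19.4% and 23.8% lower.

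The genes whose levels over the 32 staged oocytes were most like those of each member were sought among 8436 genes with a mean of at least 100. *Ddx6* was nearest to *Iqgap1* (Pearson correlation 0.93), *Chd9* (0.91) and *Arf4* (0.90), and *Patl2* to *Klhl21* (0.91), *Rnf6* (0.90) and *Ubtf* (0.89). All 6 were lower at SN in Nlrp5+/+ oocytes, by log2 differences of -1.50 (*Chd9*) to -3.65 (*Klhl21*). They were picked by likeness over oocytes of both stages, so this direction was largely fixed by the choice. *Cpeb1* was nearest to *Sdc1* (0.91), *Lnx2* (0.87) and *Phf13* (0.87), and *Zar1l* to *Polr1d* (0.87), *Med28* (0.84) and *Pigyl* (0.84). *Zar1* was nearest to *Lsm10* (0.83), *Pecr* (0.81) and *Ebpl* (0.81), and *Elavl2* to *Zfp729b* (0.83), *Fcho2* (0.83) and *Rnf17* (0.82). *Igf2bp2* was nearest to *Arhgap17* (0.80), *Kif2c* (0.79) and *Rubcn* (0.78), *Eif4enif1* to *Kat7* (0.75), *Med17* (0.71) and *Setd3* (0.70), and *Lsm14b* to *Lrp5*, *Cdc42bpb* and *Neurog3* (0.71 each). *Ybx2*, with the fewest counts, had the weakest likeness, at 0.67 with *Atf6* and 0.56 with *Ext1* and *Sympk*. Among the other 9 members, *Cpeb1* stood at 0.59 with *Igf2bp2*, 0.55 with *Eif4enif1* and -0.57 with *Zar1*.

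Oocyte 15, the Nlrp5-/- oocyte with no stage, was at an extreme for 2 genes. It held 2740 normalised counts of *Lsm14b*, more than any other oocyte, and 897 of *Elavl2*, fewer than any other. *Patl2* stood at 250.5, with only 1 oocyte lower, while *Ddx6* stood at 446, with 16 oocytes above and 16 below. This oocyte held the most granulosa marker counts, and their part in these values was not tested.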

How the data were processed

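Single GV oocytes of 3 *Nlrp5* genotypes were sequenced as poly(A)-primed, strandless RNA libraries. The authors used Trim Galore for trimming and HISAT2 for alignment, and deposited raw counts per gene, with coordinates of GRCm38 (the submitters' processing notes give no tool versions). A second deposited table holds the count of reads per library (4023242 to 13405901). Tables of genes called by the authors, with fold changes and p-values, were not used. Of 35373 rows, 52 repeated ones were left out.

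The counts were divided by median-of-ratios size factors over all 33 oocytes (11845 genes), averaged over oocytes and compared on the log2 scale with a pseudocount of 1. Background shares cover genes with a mean of at least 10 over the oocytes compared. Counting error is small: the upper 95% Poisson limit exceeded a member's summed counts by 0.543% to 13.8% in the staged groups and by up to 15.6% in oocyte 15. Depth limits *Ybx2* most.

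The 10 genes, the lists and the alternatives were chosen with earlier results of these data known. Named genes were all 10 members, list genes with a log2 difference of at least 1 and no overlap (at most 4 per list and comparison), and the 3 most alike genes. Alternatives were edgeR TMM factors, total counts, size factors within a comparison, medians, pooled sums, a pseudocount of 5, no filter, leaving out oocytes, no regard to stage, and pairs sharing a first index. Differences were checked on simulated data with 200 changed genes. Transcript lengths, matched for 98.4% of genes, and 3′ ends came from GENCODE vM39 on GRCm39, and promoters from RefSeq on GRCm38.p6, with no coordinate converted. The software was edgeR 4.0.16 in R 4.3.3, and pandas 2.3.3, matplotlib 3.10.9, scipy 1.17.1 and numpy 2.4.6 in Python 3.11.15.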

Additional observations from a re-analysis of the deposited data

Results flagged for a closer look

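Of 50 groups of 4 to 9 oocytes looked at (10 genes in 5 groups), 3 held 1 oocyte far from the others by Dixon's 95% criterion, and chance flags about 1 in 20. *Zar1* was 18430.2 normalised counts in Nlrp5+/- SN oocyte 40, where the next oocyte held 13415 and the lowest 9936. *Lsm14b* was 1872.8 in Nlrp5+/+ NSN oocyte 70, where the other 3 lay between 1727 and 1751. *Elavl2* was 2834.2 in Nlrp5+/- NSN oocyte 63, where the next held 2166.5 and the lowest 1537.

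In oocyte 15, which has no stage and entered no comparison by stage, 2 genes lay above every Nlrp5+/+ oocyte. *Lsm14b* held 2740.1 normalised counts against at most 2307, and *Ybx2* held 153 against at most 152, a gap smaller than the counting error of *Ybx2*.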

How the results depend on the processing

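The median log2 difference over the 10 genes moved by less than the spread over oocytes in 170 of 180 recomputed values, which include 2 of the order by level per length. In Nlrp5+/+ oocytes the SN minus NSN median of 0.06 became -0.05 with total counts and -0.02 with medians over oocytes. Within the first index it became -0.17 in Nlrp5+/- and -0.09 in Nlrp5-/- oocytes. Leaving out oocytes 7, 13 and 14, an alternative chosen after the data were seen, keeps the same Nlrp5-/- oocytes and gives the same -0.09. The Nlrp5+/- minus Nlrp5+/+ median at NSN, 0.09, became -0.02 with medians and -0.01 regardless of stage. Leaving out 1 oocyte at a time, the SN minus NSN median was 0.01 to 0.15 in Nlrp5+/+ (0.15 without oocyte 79) and -0.11 to 0.13 in Nlrp5-/- oocytes (-0.11 without oocyte 7), and the Nlrp5+/- minus Nlrp5+/+ median at NSN was 0.00 to 0.13 (0.00 without oocyte 78).

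Not every setting could move a result. Dropping the filter changed no difference of the 10 genes, since all passed it. The setting regardless of stage mixes NSN and SN oocytes in shares that differ between genotypes. In the Nlrp5-/- stage comparison, the first index and leaving out oocytes 7, 13 and 14 give the same oocytes, 29, 30 and 31. Of the 10 differences of single genes past the fold, 7 stayed past it under every setting and 0 changed sign. Those that did not were *Lsm14b* in Nlrp5-/- oocytes (0.29 to 0.72), *Ddx6* in Nlrp5+/- against Nlrp5+/+ NSN oocytes (-0.93 to -0.04) and *Patl2* in Nlrp5-/- against Nlrp5+/- SN oocytes (0.07 to 0.68). Of the 80 differences below the fold, 17 reached it under at least 1 setting (values rounded to 2 decimals), most of them on leaving out 1 oocyte. The order of the 10 genes by level per length was the same with the longest transcript and with total counts. No paired analysis was possible because the labels give no replicate numbers that pair oocytes, and pairs of stages that share a first index were compared in its place. Each first index held oocytes of a single genotype, so genotype and index cannot be told apart in any comparison between genotypes. Nlrp5-/- oocytes 13, 14 and 15 shared a first index. Only 2 Nlrp5-/- SN oocytes, stages read from a plot, and the lack of named mice limit every comparison.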
